A study of Capra hircus with 3 samples.

Results

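The tags described here are short skin RNAs whose 3′ end is CCA, the tail of a mature tRNA. They were chosen by length and ending alone, as every distinct clean tag of 18 to 24 nt whose last 3 bases are CCA. A tag is a distinct sequence, and its count is the number of reads with exactly that sequence. The choice gave 45172 of the 4043974 distinct tags and 1894879 of the 61125752 clean reads in the 3 libraries. They were grouped by their last 12 bases, which gave 16623 groups, since these bases hold the tail and the 3′ strand of the acceptor stem and so tell many tRNAs apart.

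Transfer RNAs carry amino acids to the ribosome. The letters CCA are not part of most tRNA genes of animals. A nucleotidyltransferase adds them to the 3′ end of the processed transcript, and the amino acid is attached to the last A. Cleavage of a mature tRNA in its T loop leaves a short 3′ piece that keeps the tail, and such pieces are found in many small RNA libraries. Cleavage in the anticodon loop leaves longer pieces.

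Skin was taken from adult Shanbei White cashmere goats, a fibre-producing breed, at the growth (anagen), regression (catagen) and rest (telogen) stages of the hair cycle, with no treatment named in the labels. Each stage has 1 library, made from RNA pooled over 10 goats, so no age is given beyond adult, the spread between animals is lost, and a difference between libraries cannot be told apart from a difference between pools. Whole skin was used, so the libraries hold follicle, epidermis, dermis and any other cells of the piece. Depth was 15997828 clean reads for anagen, 18111912 for catagen and 27016012 for telogen. All tests below compare 2 libraries and not 2 stages. Intervals are at 95% and cover counting error alone, since PCR copies are not independent molecules. Levels are in RPM, the reads of a tag or group divided by the clean reads of its library and scaled by 1e6. For a group without reads, a count of 0 allows up to 3 reads, or 0.188 RPM (anagen), 0.166 RPM (catagen) and 0.111 RPM (telogen).

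Of the tags below, the first 12 belong to the 12 groups with a T loop among the 15 with most reads. The next 6 are T-loop groups chosen for their ratio between libraries, and the last 5 are members that end in CCA without a T loop. Each is the tag with most reads in its group, written 5′ to 3′ as DNA letters, with the tail in capitals.
gccaatgcaCCA: tcgtttcccggccaatgcaCCA
ctcgaaggaCCA: tcgtttccggctcgaaggaCCA
gcggaaacaCCA: tcgtaaccgggcggaaacaCCA
tcggggtcaCCA: tcaggtcacgtcggggtcaCCA
ggcggcgcaCCA: tcgtttcccgggcggcgcaCCA
gccaacgcaCCA: tcgtttcccggccaacgcaCCA
gacgagcccCCA: atcccggacgagcccCCA
gtcacggcaCCA: ttcgtatccgagtcacggcaCCA
tcctcgtcgCCA: gtatcccatcctcgtcgCCA
gcggtgcctCCA: tcgtatcccagcggtgcctCCA
ccgcggtcgCCA: tcgtgtcctgccgcggtcgCCA
gcatctccaCCA: gttcgatccccggcatctccaCCA
gcggagtcgCCA: tcgtgtcccggcggagtcgCCA
tctgggtcgCCA: gttcgtgtcccatctgggtcgCCA
cacggggcaCCA: ttcgttcctcacacggggcaCCA
gagagggcaCCA: tcgtgtctcagagagggcaCCA
gtcagggaaCCA: gttcgtttcccggtcagggaaCCA
gacggggagCCA: ttcgattccccgacggggagCCA
cagggatttCCA: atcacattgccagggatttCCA
cagggattaCCA: atcacattgccagggattaCCA
tggtgcggaCCA: ccgacttagaactggtgcggaCCA
tacaaagtcCCA: aactggcctacaaagtcCCA
taagttccgCCA: ttcacagtggctaagttccgCCA

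The level of the CCA-ending tags was lowest in anagen. They held 323395 reads in anagen, 672212 reads in catagen and 899272 reads in telogen. Scaled to depth, this is 20215 RPM in anagen, 37114 RPM in catagen and 33287 RPM in telogen. As a share of clean reads, it is 2.02% (Wilson interval 2.01 to 2.03), 3.71% (3.70 to 3.72) and 3.33% (3.32 to 3.34), respectively. The log2 ratio of the RPM was 0.88 (exact interval 0.87 to 0.88) for catagen over anagen, 0.72 (0.71 to 0.73) for telogen over anagen and -0.16 (-0.16 to -0.15) for telogen over catagen. Each ratio differed from 0 in the two-sided exact Audic-Claverie test, but all 3 were below the limit of 1 that was set for a call. Tags of the same lengths with another ending gave log2 ratios of -0.02, -0.11 and -0.09 in the same order, so they did not share the step above anagen. In whole skin, fewer cells of a type and less RNA per cell cannot be told apart.

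Distinct tags told less. The libraries held 15864 distinct CCA-ending tags in anagen, 19745 such tags in catagen and 25044 such tags in telogen, and 68.8%, 67.0% and 68.1% of them, respectively, had been read a single time. Only 4935 tags occurred in all 3 libraries, but these carried 96.7% of the reads. The 34626 tags seen in a single library carried 2.13%. The bulk of the signal was thus a recurrent set of sequences with a long tail of rare ones.

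Among the 64 possible last trinucleotides of tags of 18 to 24 nt, CCA ranked 5 by reads for anagen, 4 for catagen and 3 for telogen. It closed 2.72%, 4.95% and 4.75% of the reads of these lengths, respectively, against 0.668%, 0.682% and 0.837% for the median ending. These shares describe what the rule selected and were not tested.

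The catagen library also stood apart in muscle miRNAs. The listed tags of the skeletal muscle miRNAs miR-206, miR-1, miR-133b and miR-133a summed to 3819 RPM in anagen, 74269 RPM in catagen and 19498 RPM in telogen, with reads for 4 of 4 in each library. Red blood cell miRNAs (miR-451, miR-144 and miR-486, 3 of 3 with reads) summed to 1170, 1867 and 710 RPM. The sum peaked in catagen although miR-144 was highest in anagen, with 83.4, 28.7 and 5.89 RPM. The epithelial miRNAs miR-200b, miR-205 and miR-183 (3 of 3 with reads) summed to 182, 142 and 134 RPM. Most of this sum was miR-183, with 151, 105 and 97.5 RPM, while miR-200b had 29.6, 37.4 and 35.6 RPM and miR-205, from 2 listed tags, 1.06, 0.221 and 0.888 RPM. The list of miRNA tags is shortened, so all these sums are lower limits. No tag of the liver miRNA miR-122 was among those listed. Muscle markers and CCA-ending reads were thus both highest in catagen and lowest in anagen, and their part in the difference was not tested. Clean reads without any listed miRNA tag as the scale gave log2 ratios of the CCA-ending level of 0.98, 0.72 and -0.26.

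Tags of 22 nt were the most frequent CCA-ending length in every library. They made up 37.1% of the CCA-ending reads from anagen, 33.1% from catagen and 34.0% from telogen, against 48.6%, 52.1% and 45.8% of the reads with other endings. The lengths of the CCA-ending reads were thus spread more widely than those of the other reads, which include the miRNAs with their peak at 22 nt. At 24 nt the CCA-ending share was the larger, at 15.5%, 13.9% and 17.5% against 7.41%, 7.63% and 11.0%.

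The shortest tags varied most between libraries. The 18-nt class held 3.10% of the CCA-ending reads from anagen, 4.01% from catagen and 0.775% from telogen. In RPM the values were 627, 1490 and 258, a log2 ratio of 1.25 for catagen over anagen and -2.53 for telogen over catagen. Other endings of 18 nt had 22768, 13438 and 6395 RPM. Telogen was thus low in 18-nt reads whatever their ending, while catagen was above anagen in CCA-ending 18-nt reads and below it in the others. The filtering record of the authors counted 3.38%, 2.66% and 0.57% of the high-quality reads as shorter than 18 nt, and these had been removed. How the loss of shorter pieces bears on the 18-nt class was not tested. At 23 nt the order differed, with 2575 RPM in anagen, 5840 RPM in catagen and 6325 RPM in telogen.

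The label tRNA was checked with bases that the choice of tags did not use. Counted from 1 at the 3′ end, base 16 of a mature tRNA is position 61 of the standard numbering, where a C is nearly invariant, and bases 22, 21 and 20 are positions 55, 56 and 57 of the T loop, usually T, C and a purine. A C at base 16 was present in 84.1% of the CCA-ending reads from anagen, 85.1% from catagen and 84.6% from telogen, and in 8.63%, 8.75% and 9.96% of the reads with other endings. Below, the 4 letters together are called the T-loop letters for short, although base 16 lies just outside the loop. Among reads of 22 nt or longer, all 4 were present in 76.1%, 75.6% and 77.1%, against 0.207%, 0.373% and 0.278% with other endings. Most of the reads thus carried the T arm at the distance from the end that a mature tRNA has, and the share was alike in the 3 libraries. Counted over distinct tags, the share with C at base 16 was 57.0%, 57.5% and 55.2%, against 20.1%, 19.8% and 20.6% with other endings. All 4 letters were in 33.2%, 34.2% and 31.5% of the distinct CCA-ending tags of 22 nt or longer, against 0.676%, 0.663% and 0.678%.

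A group was called a T-loop group when most of its reads of 22 nt or longer had these letters. This division was made after the values had been seen. It gave 1299 of 16623 groups, which held 81.6% of the CCA-ending reads from anagen, 83.6% from catagen and 82.6% from telogen. The T-loop groups alone summed to 16496, 31015 and 27501 RPM, and all other groups to 3719, 6099 and 5786 RPM, so in both classes anagen was the lowest library and catagen the highest. A C at base 16 alone does not mark a T-loop group. The groups agggcaccaCCA and catgttggaCCA had it in 99.6% and 99.8% of their reads and were not T-loop groups.

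Few groups held most of the reads. The 15 groups with the highest mean RPM made up 78.1% of the CCA-ending reads from anagen, 81.8% from catagen and 81.0% from telogen, and 36, 32 and 33 groups were enough for 90%. All 15 were higher in catagen than in anagen and in telogen than in anagen. Of the 15, 12 were T-loop groups and 3 were not. No goat tRNA sequences were used here, so groups are given by their bases and were not assigned to an amino acid or a tRNA gene.

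The group gccaatgcaCCA stood far above the others. It had 6486 RPM in anagen, 10083 RPM in catagen and 10860 RPM in telogen, which is 32.1%, 27.2% and 32.6% of the CCA-ending reads. Its log2 ratio was 0.64 (exact interval 0.63 to 0.65) for catagen over anagen and 0.74 (0.73 to 0.75) for telogen over anagen. Neither ratio passed the limit of 1. The tag printed for it held 26.1% of its reads, and the group counted 869 tags in all, of other lengths or with other bases upstream. The group gccaacgcaCCA differs from it at 1 of the 12 bases and had 599, 1154 and 1437 RPM, with a log2 ratio of 1.26 (1.23 to 1.29) for telogen over anagen that was called. The group ggcggcgcaCCA, whose printed tag opens with the same bases as both, had 633 RPM in anagen, 1881 RPM in catagen and 2070 RPM in telogen, a called log2 ratio of 1.57 (1.54 to 1.60) and 1.71 (1.68 to 1.74) over anagen. These 3 groups were highest in telogen.

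Other abundant T-loop groups were highest in catagen. The group ctcgaaggaCCA had 1470 RPM in anagen, 3138 RPM in catagen and 2012 RPM in telogen, and its log2 ratio of 1.09 (1.07 to 1.12) for catagen over anagen was called. The group gcggaaacaCCA had 1650, 2590 and 1762 RPM, so that telogen lay close to anagen (log2 ratio 0.09, 0.07 to 0.12). The group tcggggtcaCCA had 921, 2988 and 1903 RPM and was called in both comparisons with anagen, at 1.70 (1.67 to 1.72) in catagen and 1.05 (1.02 to 1.07) in telogen. The catagen peak was steepest in gacgagcccCCA, with 386 RPM in anagen, 1625 RPM in catagen and 774 RPM in telogen. It was the only one of the 15 that was called in telogen over catagen, at -1.07 (-1.10 to -1.05), beside 2.07 (2.03 to 2.11) in catagen over anagen. Its log2 ratio in telogen over anagen was 1.00 (0.96 to 1.04), just past the limit. It was also the group with the shortest printed tag, of 18 nt.

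The group ccgcggtcgCCA had 214 RPM in anagen, 630 RPM in catagen and 358 RPM in telogen and was called in catagen over anagen (1.56, 1.51 to 1.62). The remaining T-loop groups of the 15 changed by less than the limit in all comparisons. The group gtcacggcaCCA had 568, 1036 and 983 RPM. The groups tcctcgtcgCCA, gcggtgcctCCA and gcatctccaCCA stayed between 271 and 665 RPM, with log2 ratios over anagen between 0.16 and 0.72. The flattest of all was tcctcgtcgCCA, with 539 RPM in anagen, 665 RPM in catagen and 603 RPM in telogen.

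The other 3 of the 15 had no T loop. The tag of cagggatttCCA held 97.9% of its group and lies within a tag that the study listed for bta-mir-23a, a miRNA whose own sequence thus holds these letters. Its group had 816 RPM in anagen, 2068 RPM in catagen and 1659 RPM in telogen and was called in both comparisons with anagen (1.34 and 1.02). The group cagggattaCCA, whose tag shares its first 18 bases with tags listed for bta-mir-23a and bta-mir-23b, had 435, 913 and 907 RPM and was called as well (1.07 and 1.06). The group tggtgcggaCCA had 487, 673 and 734 RPM, and 69.3%, 62.2% and 62.9% of the reads with this ending were longer than 24 nt. A CCA end at 18 to 24 nt was therefore also found on abundant tags without the T loop of a tRNA.

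A group was called when its absolute log2 ratio exceeded 1 and its exact p was below 0.01, after groups under 1 RPM in both libraries were left out. For catagen over anagen, 352 of the 16623 CCA-ending groups were tested and 177 were called, which is 50.3% against a background of 45.1% of all groups of tags of 18 to 24 nt, whatever their ending. Higher in catagen were 127 groups (36.1%, background 21.5%), and lower were 50 groups (14.2%, background 23.6%). The median log2 ratio was 0.80, against 0.15 over all groups tested. The CCA-ending groups leaned to catagen more than all groups did, while the share called in either direction was near the background. Scaled to the total of CCA-ending reads, which removes the common shift, 31 groups were higher and 101 lower.

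For telogen over anagen, 146 of 340 groups tested were called (42.9%, background 33.1%). Higher in telogen were 105 groups (30.9%, background 20.5%) and lower were 41 (12.1%, background 12.7%), with a median log2 ratio of 0.63 against 0.30. Scaled to the total of CCA-ending reads, 38 were higher and 89 lower. For telogen over catagen, 88 of 344 were called (25.6%, background 30.7%), 43 higher (12.5%, background 20.6%) and 45 lower (13.1%, background 10.1%), with a median of -0.11 against 0.14. The split of this pair moved with the scale, to 52 higher and 30 lower with size factors and to 53 higher and 28 lower with the total of CCA-ending reads. Telogen and catagen were thus the pair with the fewest calls, and the direction between them depended on the scale.

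Groups with at least 100 reads in both libraries leaned further to one side in the comparisons with anagen. Of 84 such groups, 76 had a log2 ratio above 0 for catagen over anagen, against 1972 of 3422 groups with any ending. Called higher were 35 (background 16.8%) and called lower 3 (background 15.3%), and all 3 lacked the T loop. For telogen over anagen, 73 of 86 were above 0, against 2517 of 3903. Called higher were 27 (background 12.5%) and called lower 0 (background 4.64%). For telogen over catagen, 46 of 117 were above 0, against 2231 of 4365, with 4 called higher (background 14.4%) and 8 called lower (background 5.34%). The median log2 ratios of these groups were 0.88, 0.74 and -0.06, against 0.20, 0.25 and 0.02 over all groups with as many reads. With the minimum of 1 RPM alone, T-loop groups were called in both directions. Catagen over anagen gave 65 of 172 higher (background 21.5%) and 24 lower (background 23.6%). Telogen over anagen gave 49 of 171 higher (background 20.5%) and 26 lower (background 12.7%). Telogen over catagen gave 15 of 165 higher (background 20.6%) and 28 lower (background 10.1%). The edgeR exact test, with a biological coefficient of variation of 0.4 assumed, called higher and lower groups in nearly equal number. It called 21 of 352 groups higher in catagen than in anagen (background 4.92%) and 18 lower (background 7.40%). For telogen over anagen it called 18 of 340 higher (background 2.98%) and 20 lower (background 4.76%), and for telogen over catagen 8 of 344 higher (background 2.84%) and 6 lower (background 2.67%).

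Groups chosen for their ratio are given as a description, since the ratio chose them. Among the T-loop groups of this kind, gcggagtcgCCA had 330 reads in anagen (20.6 RPM), 2459 in catagen (136 RPM) and 1689 in telogen (62.5 RPM), with log2 ratios of 2.72 (2.55 to 2.89) for catagen over anagen and -1.12 (-1.21 to -1.03) for telogen over catagen. The group gacggggagCCA had the same shape, with 37.5, 180 and 76.2 RPM (2.26, 2.13 to 2.39, for catagen over anagen and -1.24, -1.32 to -1.16, for telogen over catagen). The group gtcagggaaCCA had 7.44, 20.1 and 7.77 RPM, so that telogen and anagen differed by less than counting error (exact p = 0.747). These 3 were peaked in catagen.

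In the next 2 groups catagen and telogen were level. The group tctgggtcgCCA had 148 reads in anagen (9.25 RPM), 1084 in catagen (59.9 RPM) and 1567 in telogen (58.0 RPM), and the last 2 differed by less than counting error (exact p = 0.425). The group cacggggcaCCA had 7.001, 36.9 and 35.4 RPM with the same shape (exact p = 0.392). Only gagagggcaCCA among the T-loop groups named was called higher in telogen than in catagen, with 9.94 RPM in anagen, 17.4 RPM in catagen and 37.2 RPM in telogen (1.09, 0.91 to 1.28). All 18 T-loop groups named had log2 ratios above 0 in both comparisons with anagen.

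Of the 6 groups without a T loop that were chosen for their ratio, all except taagttccgCCA were lowest in catagen. The group tacaaagtcCCA, whose tag lies within one listed for bta-mir-193a, had 2204 reads in anagen (138 RPM), 295 in catagen (16.3 RPM) and 3943 in telogen (146 RPM). Its log2 ratio was -3.08 (-3.26 to -2.90) for catagen over anagen and 3.16 (2.99 to 3.34) for telogen over catagen. The group agggcaccaCCA had 221, 83.3 and 153 RPM and gggacagtgCCA 20.8, 9.28 and 17.1 RPM, both called lower in catagen than in anagen. The groups catgttggaCCA (10.5, 5.91 and 28.9 RPM) and ggcgttcagCCA (36.6, 19.8 and 45.8 RPM) were called higher in telogen than in catagen. The group taagttccgCCA had 16 reads from anagen, 519 from catagen and 107 from telogen, with a log2 ratio of -2.85 (-3.17 to -2.55) for telogen over catagen. Its tag of 23 nt shares only its first 18 bases with one listed for bta-mir-27b. The list is shortened, so the tag was not assigned to a miRNA. The 3 groups with at least 100 reads called lower in catagen than in anagen, and the 3 with the largest ratio for telogen over catagen, thus all lacked the T loop.

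Base 19 from the 3′ end was read in more than one way in nearly every T-loop group named. It is position 58, an adenosine that carries a methyl group in many tRNAs (1-methyladenosine), a modification known to make reverse transcriptase stop or insert other bases. In reads with the 4 T-loop letters, base 19 was A in 17.4%, G in 9.94%, C in 0.815% and T in 71.9% of reads in anagen. In catagen the shares were 16.9%, 14.3%, 0.941% and 67.9%, and in telogen 14.6%, 12.3%, 0.871% and 72.3%. This base was looked at because A was far rarer than in the known T loop, so the choice followed the values.

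In most groups the bases around it were far less mixed. Each base was counted only in reads that had the group's most common bases at the other positions from 13 to 22, base 19 left aside, so reads with a change at 2 of these positions are not in the shares. In the T-loop groups named with at least 1000 reads, the median share of reads with a base other than the most common was 36.7% at base 19 (7.25% to 53.1% over 16 groups). At the other bases from 13 to 22 the medians lay between 0.0337% and 0.231%. A few groups also had mixed bases elsewhere, such as gcatctccaCCA at base 20 (46.8%), gagagggcaCCA at base 17 (22.3%), tcggggtcaCCA at base 18 (15.8%) and ctcgaaggaCCA at base 18 (13.5%). The group gagagggcaCCA reached 1000 reads at base 17 only, with 1048 reads that include the mixed ones. The share for tcggggtcaCCA is not that of all its reads, since base 20 was mixed as well. Its reads numbered 50523 with G at base 18 and A at base 20, 9466 with A at both and 6877 with A at base 18 and G at base 20. No tRNA gene sequences were used, so whether such a base was encoded or misread was not tested.

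For 4 groups the 22-nt tags that differ only at this base are shown, with base 19 and the tail in capitals. The first 3 are abundant groups with different mixtures, and the fourth had the highest share of A among the groups named.
gccaatgcaCCA with A: tcgAttcccggccaatgcaCCA
gccaatgcaCCA with C: tcgCttcccggccaatgcaCCA
gccaatgcaCCA with G: tcgGttcccggccaatgcaCCA
gccaatgcaCCA with T: tcgTttcccggccaatgcaCCA
gcggaaacaCCA with A: tcgAaaccgggcggaaacaCCA
gcggaaacaCCA with G: tcgGaaccgggcggaaacaCCA
gcggaaacaCCA with T: tcgTaaccgggcggaaacaCCA
tcggggtcaCCA with A: tcaAgtcacgtcggggtcaCCA
tcggggtcaCCA with G: tcaGgtcacgtcggggtcaCCA
tcggggtcaCCA with T: tcaTgtcacgtcggggtcaCCA
gacggggagCCA with A: tcgAttccccgacggggagCCA
gacggggagCCA with T: tcgTttccccgacggggagCCA

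In gccaatgcaCCA, the 22-nt tag with T had 30908 reads from anagen, 44665 from catagen and 75546 from telogen, and the tag with A had 5107, 6012 and 7560. The T form thus held 84.7%, 86.8% and 89.6% of the 4 forms. In gcggaaacaCCA the T form held 51.8%, 48.8% and 48.2%, the A form 30.9%, 34.9% and 35.9% and the G form 15.6%, 14.8% and 14.6%. The G form led in tcggggtcaCCA, with 63.9%, 63.4% and 64.4%. In gacggggagCCA most reads had A, with 112 of the 22-nt reads against 3 with T in anagen, 121 against 18 in catagen and 95 against 10 in telogen. The leading base was thus the same in the 3 libraries for each of these 4 groups and differed between groups. The shares themselves moved, as for the A form of gccaatgcaCCA, with 13.999%, 11.7% and 8.97%. The T form of gacggggagCCA had 2.61%, 12.95% and 9.52%, but from only 3, 18 and 10 reads. Over its reads of 22 nt or longer with its most common bases at the other positions from 13 to 22, T held less. There it had 4.19% of 406 reads in anagen, 6.70% of 2568 in catagen and 8.59% of 1676 in telogen.

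Over all T-loop groups, a set was taken as the reads of a group with the same bases at 18 and 20. In the 32 sets with at least 500 reads in each library, the share of T at base 19 ran from 0.859% to 92.5%. Within a set the 3 libraries differed by a median of 2.19 percentage points and by at most 5.98 points, in gtggaaccaCCA. The share of T was highest in telogen in 14 of the 32 sets. The mixture thus varied far less between libraries than between groups.

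In sets with A or G at base 18, next to it, the mixture differed with that base. With A at base 18, in 8 sets of the groups named, the median shares were 53.2% T, 22.5% A and 15.3% G. With G at base 18, in 5 sets, they were 49.2% T, 9.60% A and 39.9% G. In 10 sets with T at base 18 the values were spread, with 0.0640% to 27.5% G (median 1.61%) and 7.10% to 89.1% T. Groups not named had a median of 15.2% G over 14 sets with A at base 18, 37.6% G over 9 sets with G there and 12.5% G over 8 sets with T. Sets of related tRNAs share sequence and are not independent, so no test was made. The group ctcgaaggaCCA held both kinds, with 1.38% G where base 18 was T and 56.5% G where it was C. That was the only named set with C at base 18, and it had 23.9% A. The 2 sets with C there outside the groups named differed from it, with medians of 3.63% G and 94.9% A.

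Base 4, the discriminator base just before the tail (position 73), helps aminoacyl-tRNA synthetases to tell tRNAs apart. Among the CCA-ending reads with C at base 16 it was A in 84.9% of reads from anagen, 81.4% from catagen and 85.1% from telogen. G followed with 8.79%, 10.004% and 8.52%. C held 2.82%, 5.46% and 3.11%, and T held 3.44%, 3.10% and 3.30%. The higher share of C in catagen went with gacgagcccCCA, which has C at this base and had 1.91%, 4.38% and 2.32% of the CCA-ending reads.

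Counted over the named T-loop groups together, most ends carried the complete tail. Ends that stop before the tail, after C or after CC lie outside the rule and were counted for the 18 T-loop groups named, in reads with 15 to 24 bases before the tail. The full CCA closed 93.3% (Wilson interval 93.2 to 93.4) of such ends in anagen, 97.6% (97.57 to 97.65) in catagen and 94.4% (94.4 to 94.5) in telogen. Ends at CC made up 2.27%, 1.15% and 2.34%, ends at C 2.70%, 0.736% and 1.97% and ends without any base of the tail 1.72%, 0.504% and 1.28%. The share of full tails was highest in catagen in 18 of the 18 groups. Of these, 12 were among the 15 with most CCA-ending reads, and the other 6 were chosen for the ratio of such reads. CCA-ending reads are also the numerator of this share, so the shares of all 18 are a description. Of the 6 chosen for their ratio, gcggagtcgCCA had a share of 65.5% for anagen, 95.7% for catagen and 80.6% for telogen, and gacggggagCCA 61.6%, 94.0% and 72.8%. The abundant gccaatgcaCCA had 92.8%, 97.9% and 95.0%. The lowest shares in catagen were those of gacgagcccCCA, with 83.7%, and gtcagggaaCCA, with 85.5%. In gtcagggaaCCA it was 57.7% for anagen and 38.8% for telogen, so that most of its telogen ends lacked part of the tail.

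Few reads of the named T-loop groups went on past the tail. Of the reads that reached CCA in the T-loop groups named, 0.692% for anagen, 0.431% for catagen and 0.458% for telogen went on for 1 to 3 bases. The highest share was that of gcatctccaCCA, with 4.41%, 2.87% and 2.25%. Groups without a T loop ranged widely and overlapped with this, since ggcgttcagCCA had 2.54%, 16.7% and 4.52%. With 18 or more bases before the tail, the T-loop groups together had 0.196%, 0.207% and 0.272%, and gcatctccaCCA had 0.356%, 0.524% and 0.675%. The overlap was then gone. The highest T-loop share was 1.53%, from 4 reads of gagagggcaCCA in anagen, where ggcgttcagCCA had 2.55%. In agggcaccaCCA 75.5%, 79.8% and 79.4% went on, and in gggacagtgCCA 77.7%, 84.4% and 82.4%. The group cagggattaCCA had 62.2%, 62.2% and 60.6% and cagggatttCCA 27.8%, 29.2% and 28.7%. The group tggtgcggaCCA had 38.7%, 36.5% and 37.7% and catgttggaCCA 74.6%, 68.0% and 70.8%. In taagttccgCCA the values were 23.8%, 44.7% and 35.2%, with only 5 such reads in anagen. The shares from agggcaccaCCA on are for 15 or more bases before the tail, like that of tacaaagtcCCA given above. In the groups named without a T loop, except ggcgttcagCCA, CCA was thus often a point inside a longer sequence and not its end.

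CCA-ending reads of 25 nt or longer, up to the 44 nt of the longest tag, lie outside the rule. They made up 27.3% of all CCA-ending reads from anagen, 21.4% from catagen and 20.7% from telogen, or 7576, 10088 and 8690 RPM, and 68.0%, 68.9% and 64.4% of them had C at base 16. Over the 15 groups with most reads together, 15.6%, 11.4% and 12.03% of the reads were above 24 nt. The share was higher in gtcacggcaCCA, with 44.3%, 35.0% and 35.6%, and in tggtgcggaCCA, where most reads were long, as given above. Tags of 27 nt had 2131 RPM in anagen, 2797 RPM in catagen and 2254 RPM in telogen, and gttcgggcgCCA, which is not among the groups named by rule, held 18.4% of them. Tags of 33 nt or longer had 339, 392 and 62.8 RPM, so telogen held few of the longest CCA-ending reads.

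The 5′ end of the same tRNA pairs with the acceptor bases just inside the discriminator base. Tags of 28 to 36 nt, the length of pieces cut at the anticodon, were therefore searched for a start of 7 bases complementary to those of each group named, with no G:U pair allowed, and for T at base 8, which is nearly invariant in tRNA. This search was added after the values of the 3′ tags had been seen, and 7 bases do not identify a tRNA. Of the 18 T-loop groups, 14 had more reads with this start than the median of 62 reads over 16382 starts, and in 12 of the 18 more than 50% of these reads had T at base 8. That held for 0 of the 9 groups without a T loop, and T stood at base 8 in 29.8% of all reads of these lengths. Of the 9, cagggatttCCA and cagggattaCCA have the same start and so count the same reads. The tags of these 2, of tacaaagtcCCA and of taagttccgCCA match listed miRNA tags over 18 bases or more. The 9 groups are thus a description and no test. The 3′ tags had candidate 5′ partners in most T-loop groups named.

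These partners did not follow the 3′ tags over the libraries. The start GTTTCCG, which pairs with gcggaaacaCCA, had 1916 RPM in anagen, 1099 RPM in catagen and 407 RPM in telogen with T at base 8. The start GCATTGG, which pairs with gccaatgcaCCA, had 502, 381 and 116 RPM. The start GGCTCGT, which pairs with gacgagcccCCA, had 448, 446 and 177 RPM. The partner of cacggggcaCCA was close to 0, with 0.188, 0.0552 and 0.666 RPM. In 10 of the 12 groups with such partners, anagen was the highest library, whereas the 3′ tags of all 12 were lowest in anagen. All reads of 28 to 36 nt made up 15.1% of clean reads from anagen, 13.3% from catagen and 13.02% from telogen, a smaller step than that of the partners. The difference in order was not tested.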

How the data were processed

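Small RNA was sequenced from goat skin at 3 stages of the hair cycle, each with 1 library from RNA pooled over 10 goats. Per the methods of the study, the authors discarded poor reads, adapter artefacts and inserts under 18 nt, and collapsed identical reads into tags. The deposited files give the length, sequence and unnormalised read count of each tag. A deposited filtering record holds, for each class of discarded reads, a count and its percent of high-quality reads. No aligner or genome build enters these values, and the program versions of this step were not given in the sources used here. A minimum of 18 nt sets the lower edge of the lengths described.

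Tags of 18 to 24 nt ending in CCA were summed by length and by their last 12 bases and scaled to clean reads (Python 3.11.15, pandas 2.3.3, numpy 2.4.6, scipy 1.17.1). Depth was 15997828 to 27016012 clean reads. Each pair of libraries was compared by the two-sided exact Audic-Claverie test, fitted over all groups of tags of 18 to 24 nt. Groups under 1 RPM in both libraries were left out, and 0 was set to 0.01 RPM. A call needed a log2 ratio past 1 in either direction and p under 0.01. Without replicates there is no spread to fit a quasi-likelihood model to, so edgeR 4.0.16 (R 4.3.3) was run as an exact test with an assumed coefficient of variation of 0.4. Ratios have exact (Clopper-Pearson) and shares Wilson intervals at 95%. Counts were simulated by Poisson draws from the same mean in both libraries. In each pair, 200 of the more abundant groups were changed by a fold of 4, and 200 of 200 were called. Of the unchanged groups, 75 of 12262 were called for catagen over anagen, 57 of 12486 for telogen over anagen and 49 of 12163 for telogen over catagen. The simulation held counting error alone, without variation between pools or from PCR. Its share of false calls therefore does not carry over to these libraries.

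The groups named were the 15 with the highest mean RPM and, for each pair, the 3 higher and 3 lower called groups with the largest absolute log2 ratio among those with at least 100 reads in both libraries, 27 in all. The tag shown is the one with most reads. The members, lists and rules were chosen with earlier results of these data known. miRNA names come from the tags listed in the supplement of the study, of which the copy used is shortened, so a miRNA without a listed tag may still have reads. Alternatives were other scales, groupings, minimums, tests and definitions of a tRNA tag. Goat tRNA genes were not used here.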

Additional observations from a re-analysis of the deposited data

How the results depend on the processing

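The level of CCA-ending reads kept the sign and call of its 3 log2 ratios under the alternatives run, except 2. Counted as distinct tags, telogen over anagen was -0.012 (exact p = 0.409), and for 22 to 24 nt alone telogen over catagen was 0.013. Counted as distinct tags, the share at 22 nt was 19.7%, 18.7% and 20.7% in anagen, catagen and telogen, the share with C at base 16 was 57.0%, 57.5% and 55.2%, the share over 24 nt was 46.6%, 47.9% and 48.0%, that of full tails was 63.1%, 77.02% and 66.0%, and the rank of the ending in catagen was 2. With C at base 16 only, the share at 22 nt was 34.3%, 27.7% and 29.2%. Without the most abundant group it was 37.5%, 34.8% and 36.3%, and the share with C at base 16 was 77.03%, 79.7% and 77.5%. With 18 or more bases before the tail, full tails made up 92.7%, 97.5% and 94.0%. Called groups for catagen over anagen, telogen over anagen and telogen over catagen numbered 177, 146 and 88. They numbered 764, 735 and 379 with exact tags, 76, 74 and 27 with at least 100 reads in a library, 89, 75 and 43 with T-loop groups only, and 39, 38 and 14 with the edgeR exact test, of which 21, 18 and 8 were higher. With C at base 16 groups only, they numbered 115 for catagen over anagen and 52 for telogen over catagen. The last comparison had 141 without a minimum and 160 without a limit on the ratio. Scaling to CCA-ending reads turned the balance of calls over anagen, from 127 higher and 50 lower to 31 and 101 in catagen and from 105 and 41 to 38 and 89 in telogen. For telogen over catagen, 43 higher and 45 lower became 53 and 28, and 52 and 30 with size factors. The causes of these shifts were not tested. The T-loop alternatives and that of 18 or more bases were chosen after seeing the data. No paired analysis was possible because each stage has 1 library and the labels carry no replicate numbers, and for the same reason no replicate could be left out. Counting error was small at this depth, and the spread between animals cannot be estimated.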

Other observations

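Rare groups lay close to the abundant ones in sequence. Of the 397 possible groups that differ from 1 of the 15 groups with most reads at a single base before the tail, 395 had reads, and together they held 43618 reads, 2.30% of the CCA-ending reads. The neighbours of gccaatgcaCCA numbered 26, with 20052 reads. Only 10 of the 395 reached 10 RPM in a library. Whether these are sequencing errors, other tRNA genes or variants was not tested.

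Few CCA-ending tags were listed as miRNAs. The listed tags had 249 reads in anagen, 357 reads in catagen and 575 reads in telogen, which is 0.0770%, 0.0531% and 0.0639% of the CCA-ending reads. Summed over the libraries the largest part came from bta-mir-223, a miRNA of myeloid blood cells, with 18 reads in anagen, 76 reads in catagen and 262 reads in telogen. In anagen and catagen bta-mir-1306 had more, with 73 and 89 reads, and it had 141 reads in telogen. These counts are a lower limit for miRNAs among the members, because the most abundant tag of cagggatttCCA lies inside a listed tag and is not itself listed.

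Base 19 was nearly always A in a pair of T-loop groups outside those named. The groups gtgtgggaaCCA and gtatgggaaCCA both had C at base 18, and A made up 96.3% of 4502 reads and 93.6% of 3617 reads at base 19, over the 3 libraries. The group gcacctccaCCA, with 83.0% A of 3874 reads, lay next to them. In most other groups that had a set of at least 500 reads, A was below 50%. At the other extreme, tccaatgcaCCA had T in 92.1% of 951 reads.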
